A study of Mus musculus with 2 samples.

Results

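Myosins, kinesins and centrosomal proteins run the cell's internal traffic, and their genes were followed here in a map of DPPA2 on the chromatin of mouse embryonic stem cells. The genes are the 101 RefSeq protein-coding genes of mm10 whose symbol is Myo, Kif or Cep followed by a digit, out of 21887 on chromosomes 1 to 19, X and Y. They are 25 Myo, 38 Kif and 38 Cep genes. Peaks were taken from both deposited lists where the summit, the highest point of a peak, lay within 1 kb of a gene end (a gene-end peak) or elsewhere inside the gene. The families were chosen by earlier counts of summits at gene ends and inside genes in these same lists, so every count of members is a description.

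DPPA2 binds DNA and is made in early embryos, stem cells and the germline. It was mapped by chromatin immunoprecipitation and sequencing in R1/E cells, a mouse embryonic stem cell line that the study describes as p53+/+. Both groups were grown on gelatin in serum with leukemia inhibitory factor and precipitated with the same DPPA2 antibody, and carry the same batch label. The adriamycin group is 1 library from cells kept for 8 h in adriamycin, also called doxorubicin, which traps topoisomerase on DNA and so causes strand breaks, and the untreated group is 1 library from cells given none. The adriamycin sample's genotype entry holds its treatment, so its genotype is known from the series text alone. With 1 library and 1 cell line per group there is no replicate error and no test, and a difference is one between these libraries. The files hold peak positions and no RNA values, so the labelled cell type was not checked against markers.

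Myosins move along actin filaments or tether cargo to them. The unconventional classes studied here carry vesicles, shape membranes and build filopodia and the stereocilia of hair cells. Kinesins move along microtubules: some carry cargo or build cilia, and a mitotic set assembles and works the spindle. The Cep proteins form and duplicate centrioles, anchor microtubules and convert the mother centriole into the base of the cilium.

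The adriamycin list held 16229 peaks and the untreated list 7043. The median summit was covered by 14 fragments in both lists (quartiles 11 and 17 with adriamycin, 12 and 18 without). Genome-wide background was 1.03 fragments in the adriamycin library and 1.19 in the untreated library. These depths were recovered from the authors' fold and p-value. Fold is the authors' peak caller's ratio of the summit to local background, and it is used here to rank peaks within a list.

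The promoters below belong to the 4 members called at a gene end in both lists (Myo9a, Myo5c, Kif13a and Cep57). Kif1b is shown too, since its adriamycin peak covers most of the window. Each is the 250 bases upstream of the RefSeq start nearest the gene's outer end (GRCm38.p6), 5′ to 3′ on the gene's strand. Capitals mark GGGCGG (a GC box, the site of SP factors), CCAAT (the site of NF-Y) and TTTGAA (the core of the cell cycle genes homology region), each on either strand, so reverse complements are capitalised too. Of the 17492 RefSeq promoters of this length, 42.7%, 36.5% and 15.1% held them, in that order. The positions are chr9:59750924-59751173 (plus strand) for Myo9a and chr9:75231764-75232013 (plus) for Myo5c. They are chr13:46929719-46929968 (minus) for Kif13a, chr9:13827108-13827357 (minus) for Cep57 and chr4:149307734-149307983 (minus) for Kif1b.
Myo9a: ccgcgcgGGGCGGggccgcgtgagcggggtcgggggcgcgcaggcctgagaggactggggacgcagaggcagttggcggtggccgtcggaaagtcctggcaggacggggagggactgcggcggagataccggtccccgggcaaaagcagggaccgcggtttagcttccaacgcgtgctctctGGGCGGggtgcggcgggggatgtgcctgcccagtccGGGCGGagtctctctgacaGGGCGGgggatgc
Myo5c: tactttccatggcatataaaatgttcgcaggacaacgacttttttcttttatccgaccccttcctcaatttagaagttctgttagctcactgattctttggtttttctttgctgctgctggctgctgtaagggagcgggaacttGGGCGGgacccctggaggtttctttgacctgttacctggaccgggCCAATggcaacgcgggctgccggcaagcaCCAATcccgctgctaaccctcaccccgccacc
Kif13a: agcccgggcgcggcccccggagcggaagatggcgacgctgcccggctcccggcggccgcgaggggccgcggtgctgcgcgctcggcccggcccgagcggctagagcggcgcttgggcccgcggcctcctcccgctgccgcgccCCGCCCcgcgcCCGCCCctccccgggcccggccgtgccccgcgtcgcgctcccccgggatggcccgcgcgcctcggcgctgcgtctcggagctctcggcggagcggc
Cep57: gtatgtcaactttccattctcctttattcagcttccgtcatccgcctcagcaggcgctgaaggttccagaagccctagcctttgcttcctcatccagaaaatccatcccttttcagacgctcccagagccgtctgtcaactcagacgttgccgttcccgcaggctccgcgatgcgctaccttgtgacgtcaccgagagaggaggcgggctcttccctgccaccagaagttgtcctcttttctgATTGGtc
Kif1b: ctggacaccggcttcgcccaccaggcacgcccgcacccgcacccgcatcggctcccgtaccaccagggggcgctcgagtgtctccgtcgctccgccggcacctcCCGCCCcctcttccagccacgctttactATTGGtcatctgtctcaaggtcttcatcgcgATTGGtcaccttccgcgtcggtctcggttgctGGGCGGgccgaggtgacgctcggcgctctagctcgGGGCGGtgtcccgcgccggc

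The Myo9a window held 29 CpG and 4 GGGCGG matches, and the Kif13a window 49 CpG and 2. The Kif1b window held 32 CpG with 3 GGGCGG and 2 CCAAT matches. The Cep57 and Myo5c windows were poorer, with 14 and 11 CpG. Of the 250 bases, the adriamycin peak covered 229 and the untreated peak 114 at Myo9a, and the adriamycin peak covered 160 at Kif1b and 73 at Myo5c. At Kif13a and Cep57 the peaks lay outside the window in both lists.

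More members had gene-end peaks in adriamycin than in untreated cells. They numbered 27 of 101 (26.7%) in the adriamycin list, against 16.0% of all protein-coding genes. They numbered 5 of 101 (4.95%) in the untreated list, against 5.78% of all genes. The adriamycin count was 9 of 25 Myo genes (36.0%), 7 of 38 Kif genes (18.4%) and 11 of 38 Cep genes (28.9%). The untreated count was 2 Myo (8.00%), 1 Kif (2.63%) and 2 Cep genes (5.26%). In the full adriamycin list Kif genes were thus near the share of all genes, and the Myo and Cep shares lay above it. These counts rest on weak peaks. With both lists cut to the same number of peaks, the adriamycin and untreated counts were 1 and 2 for Myo, 4 and 1 for Kif and 2 and 2 for Cep, against 5.73% and 5.78% of all genes. At a −log10 q of at least 5 they were 3 and 1 for Myo, 4 and 0 for Kif and 2 and 1 for Cep, against 7.12% and 2.10% of all genes. At a fold of at least 5 they were 1 and 1, 4 and 0, and 3 and 1, against 6.94% and 2.14%.

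**Figure D1:**
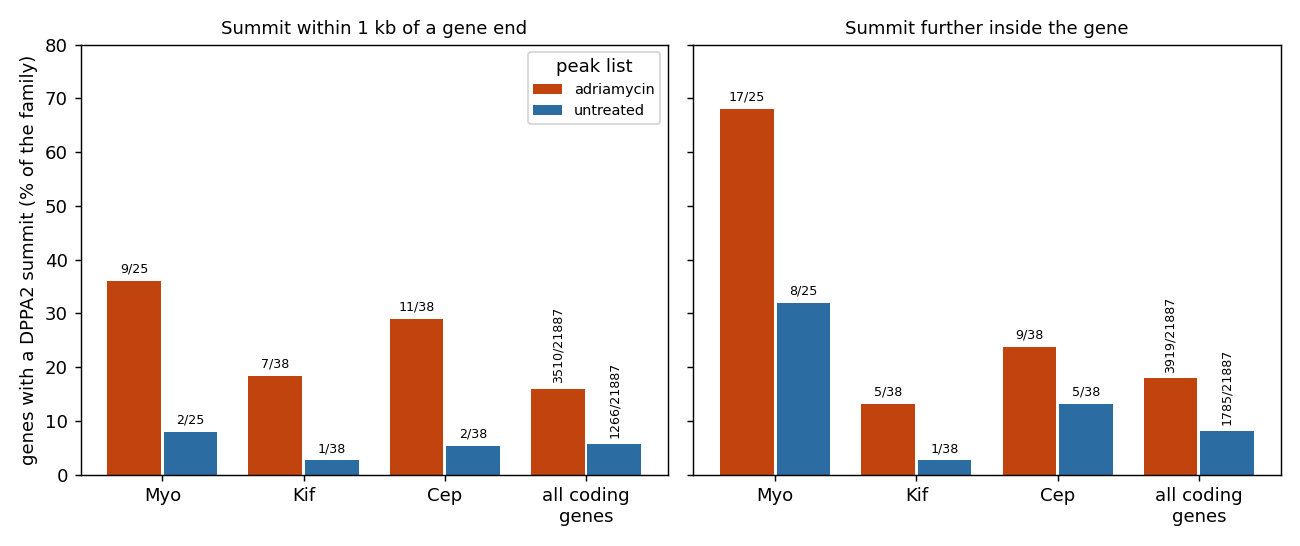
Percentage of each family, and of all protein-coding genes, with a DPPA2 summit within 1 kb of a gene end (left) or further inside the gene (right), in the adriamycin list and the untreated list; the number of genes stands on each bar. Myo genes had the highest bars in both panels in the adriamycin list, 9 of 25 at ends and 17 of 25 inside.

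Of the 27 members in the adriamycin list, 4 were also called in the untreated list (3.96% of members, against 4.51% of all genes) and 23 were not (22.8%, against 11.5%). Cep78 was the 1 member called at an end in the untreated list alone (0.990%, against 1.27% of all genes). With summits inside genes counted too, 47 members (46.5%) were called in the adriamycin list and 18 (17.8%) without treatment, against 30.2% and 13.2% of all genes. In either list 48 members had one, against 31.9% of all genes, and 53 had none.

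Among the myosins, Myo5c and Myo9a were called at their starts in both lists. Myo5c, a class V vesicle motor of epithelia (chromosome 9, 75231969 to 75307485), had its adriamycin peak at 75231941 to 75232412, with fold 5.97 and 20 fragments (95% interval 12.2 to 30.9). Its untreated peak at 75232057 to 75232452 had fold 4.41 and 14 fragments (7.65 to 23.5). The peaks overlapped, with summits 168 and 412 bp inside the gene. Myo9a, a class IX myosin with a GTPase-activating domain (chromosome 9, 59750848 to 59928866), had its adriamycin peak at 59750945 to 59751372, with fold 4.71 and 12 fragments (6.20 to 21.0). Its untreated peak at 59751060 to 59751341 had fold 5.23 and 15 fragments (8.40 to 24.7). The pileup intervals of the lists overlapped at both genes. The Myo9a summits also lay within 1 kb of an end of Senp8, a NEDD8 protease gene.

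The other 7 myosins with a gene-end peak were called in the adriamycin list alone. Myo6, which encodes the myosin that moves towards the minus end of actin (chromosome 9, 80164976 to 80311729), was called at 80165111 to 80165516, with fold 4.96 and 12 fragments (6.20 to 21.0). Myo18b, a gene of striated muscle (chromosome 5, 112688876 to 112896461), had fold 4.84 and 14 fragments (7.65 to 23.5) at 112896397 to 112896656. Its summit lay 3 bp beyond its higher-coordinate end. Myo18a, whose product links the Golgi to actin (chromosome 11, 77763240 to 77865988), had fold 4.83 and 16 fragments (9.15 to 26.0) at 77763175 to 77763374, with the summit 13 bp before its start. The folds were lower at Myo1e (4.17), a class I membrane-binding myosin, at Myo16 (3.91), and at Myo10 (3.73), which builds filopodia. The nearest untreated summits lay from 24669 bp (Myo18a) to 372508 bp (Myo16) from the ends of these 7 genes.

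Kinesins called at an end came from the transport, ciliary and microtubule-regulating groups. Kif13a, a kinesin-3 motor of endosomes (chromosome 13, 46749087 to 46929917), was the 1 Kif gene called in both lists. Its adriamycin peak at 46929211 to 46929712 had fold 5.40 and 18 fragments (10.7 to 28.4), and its untreated peak at 46929285 to 46929522 had fold 4.24 and 14 fragments (7.65 to 23.5). The summits were 18 bp apart and the intervals overlapped.

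The remaining 6 kinesins were called in the adriamycin list alone. Kif21a, a kinesin-4 that restrains microtubule growth (chromosome 15, 90933275 to 91050382), had the highest fold at an end of any member, 6.34, with 16 fragments (9.15 to 26.0) at 91049210 to 91049941. Its nearest untreated summit lay 522560 bp from its ends. Kif2a, a microtubule depolymerase (chromosome 13, 106958996 to 107022355), had fold 5.67 and 15 fragments (8.40 to 24.7) at 107021758 to 107022238. Kif1b, a carrier of mitochondria and synaptic vesicle precursors (chromosome 4, 149176319 to 149307773), had fold 5.30 and 15 fragments (8.40 to 24.7) at 149307382 to 149307893. Lower folds stood at Kif7, a ciliary regulator of Hedgehog signalling (4.57), Kif19a, which limits cilium length (4.28), and Kif1c (3.92). By kinesin family, 3 of 8 kinesin-3 genes, 2 of 5 kinesin-4 genes, 1 of 4 kinesin-13 genes and 1 of 3 kinesin-8 genes were called, and none of the 3 kinesin-1 or 4 kinesin-2 genes. With 16.0% of all genes called, counts in groups this small cannot be told from that share.

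None of 11 mitotic kinesins (Kif4, Kif11, Kif14, Kif15, Kif18a, Kif18b, Kif20a, Kif20b, Kif22, Kif23 and Kif2c) had a summit at an end or inside in either list, where 31.9% of all genes had one. All 7 gene-end calls fell on the other 27 kinesins (16.0% of all genes were called at an end with adriamycin), of which 11 had a summit at an end or inside. This grouping was made after the peaks were seen, so the contrast is a description of these 38 genes. Kif2c was counted as mitotic, but Kif2a and Kif2b of the same kinesin-13 family were not. Kif2a was called at an end with adriamycin, so the lack of calls in the mitotic set depends on that placing. The median gene length was 45482 bp for the mitotic set and 48437 bp for the rest. The adriamycin summit nearest to any of the 11 lay 3327 bp from an end of Kif14, whose nearest untreated summit was at 69176 bp. Among the others the adriamycin distance ran up to 95081 bp (Kif23). It was 13129 bp for Kif11, the spindle motor that separates the poles, and 62453 bp for Kif20a, of the central spindle. It was 31227 bp for Kif2c, 40861 bp for Kif4 and 32863 bp for Kif18a. In the untreated list the distances were 12996 bp for Kif11, 160254 bp for Kif23, 865495 bp for Kif20a, 31182 bp for Kif2c, 91503 bp for Kif4 and 351999 bp for Kif18a.

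The promoters of the mitotic kinesins also differed in sequence. In the 300-base window from 250 before to 50 after the start, TTTGAA stood in 9 of 10 mitotic kinesins with a RefSeq promoter, in 2 of 21 other kinesins and in 16.5% of all promoters. It stood in 0 of the 6 Kif promoters with a gene-end peak, none of them mitotic, and in 11 of the 25 without. The other families did not share this split, with 3 of 10 and 5 of 22 for Cep and 1 of 7 and 0 of 13 for Myo. Over all genes, TTTGAA stood in 9.65% of promoters called at an end under adriamycin and in 17.8% of the rest. In the 250 upstream bases alone, the mitotic kinesins that held TTTGAA were Kif11, Kif14, Kif15, Kif22 and Kif2c. The start used lay inside the gene for Kif14 (136467848, outer end 136466301) and Kif2c (117178772, outer end 117182624). Their windows held 3 and 2 CpG. The upstream bases of Kif11 (chr19:37376132-37376381, plus strand) and Kif15 (chr9:122950831-122951080, plus strand) are shown with the same motifs in capitals, since both hold TTTGAA near the start. A match describes these letters and no more.
Kif11: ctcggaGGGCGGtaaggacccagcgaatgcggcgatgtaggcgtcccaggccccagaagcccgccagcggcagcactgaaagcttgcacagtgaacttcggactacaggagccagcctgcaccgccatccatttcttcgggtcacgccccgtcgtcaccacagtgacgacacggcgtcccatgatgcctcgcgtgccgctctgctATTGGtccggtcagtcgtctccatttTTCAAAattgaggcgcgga
Kif15: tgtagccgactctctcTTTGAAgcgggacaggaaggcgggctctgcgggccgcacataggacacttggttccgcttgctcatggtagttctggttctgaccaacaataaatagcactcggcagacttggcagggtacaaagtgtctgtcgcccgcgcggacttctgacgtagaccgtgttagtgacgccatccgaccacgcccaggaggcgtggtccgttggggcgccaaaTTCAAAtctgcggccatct

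Centrosomal genes with a gene-end peak came from each of the roles counted below. Most were of centriole duplication and the distal appendages, which are also the largest groups. Cep57, which stabilises the material around the centriole (chromosome 9, 13807783 to 13827407), was called in both lists. The adriamycin list had 2 peaks there: 13827857 to 13828122 with fold 5.60 and 14 fragments (7.65 to 23.5), and 13826676 to 13826935 with fold 5.00 and 13 fragments (6.92 to 22.2). The untreated peak at 13827693 to 13828073 had fold 4.14 and 12 fragments (6.20 to 21.0), and overlapped the first. The first pair lay before the gene's start, towards its neighbour Fam76b, and the remaining adriamycin peak lay inside the gene.

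The strongest of the other Cep genes were called in the adriamycin list alone. Cep76, which limits centriole duplication (chromosome 18, 67616964 to 67641355), had fold 5.47 and 14 fragments (7.65 to 23.5) at 67641073 to 67641491. Cep83, a distal appendage gene (chromosome 10, 94688624 to 94790336), had fold 5.08 and 12 fragments (6.20 to 21.0) at 94688784 to 94688996. Cep350 (chromosome 1, 155844964 to 155973270) had fold 4.90 and 13 fragments (6.92 to 22.2) at 155972820 to 155973209, and its partner Cep43 had fold 4.83. Folds were 4.63 at Cep164 of the distal appendages, 4.51 at Cep295, which matures new centrioles, 4.35 at Cep126 and 4.17 at Cep112. They were 3.90 at Cep170 of the subdistal appendages and 3.69 at Cep63, needed for centriole duplication. By role, 5 of 13 genes of centriole assembly and duplication and 4 of 13 of the distal appendages, transition zone and cilium were called in the adriamycin list. So were 1 of 8 of the linker, subdistal appendages, anchoring and midbody and 1 of 4 others, against 16.0% of all genes. The roles were assigned after the peaks were seen, and counts in groups this small cannot be told from that share. Among those with no summit at an end or inside in either list were Cep55 of the midbody, Cep290 of the transition zone, and Cep135, Cep152 and Cep192 of centriole duplication.

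Cep78, of the distal centriole (chromosome 19, 15955768 to 15985700), shows what the 1 kb limit does. Its adriamycin peak at 15984399 to 15985005 had fold 5.46 and 12 fragments (6.20 to 21.0), with the summit 1145 bp from the end and so counted as inside. Its untreated peak at 15984446 to 15984960 had fold 5.66 and 17 fragments (9.90 to 27.2), with the summit 979 bp from the end. The peaks overlapped. Thus all 5 members called at an end in the untreated list had an overlapping adriamycin peak, as did 75.8% of untreated gene-end peaks of all genes. Other summits just outside the limit were 1096 bp from an end of Cep170b, 1136 bp from Cep120 and 1218 bp from Myo9b in the adriamycin list. The next inside it were at 637 bp (Cep295) and 603 bp (Cep63).

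Gene-end summits lay almost entirely at the start of the gene, and downstream of it. Strand was known for 83 members from their RefSeq promoters. The start here is the outer end of the gene on its start side, not the nearest annotated start. Of 23 gene-end summits at these members in the adriamycin list, 22 (95.7%) were nearer the start than the far end, against 86.9% of summits over all genes with a known strand. The untreated list had 5 of 5 at the start, against 85.5%. Counted by gene, 2.09% of all genes with a known strand were called at the far end under adriamycin, and 0.852% without treatment. Of the 22, 20 (90.9%) lay downstream of the start, against 83.8% of such summits over all genes. The median position was 339 bp downstream of the start (quartiles 160.5 and 490.5), against 240.0 bp over all genes. The untreated median was 412 bp over 5 summits, against 273 bp over all genes. An annotated start often lay closer to the adriamycin summit than the outer end did. The distances were 25 bp against 351 at Myo9a, 101 against 532 at Kif21a and 163 against 603 at Cep63. It lay farther at Myo18a and at the outer Cep57 peak, and equally far at Myo10, Myo16 and Myo1e. The Kif1b summit, counted as downstream, lay 19 bp upstream of an annotated start. These medians therefore do not give distances from annotated starts. The far-end summit was that of Cep295, 637 bp past the gene and also within 1 kb of an end of Taf1d.

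**Figure D2:**
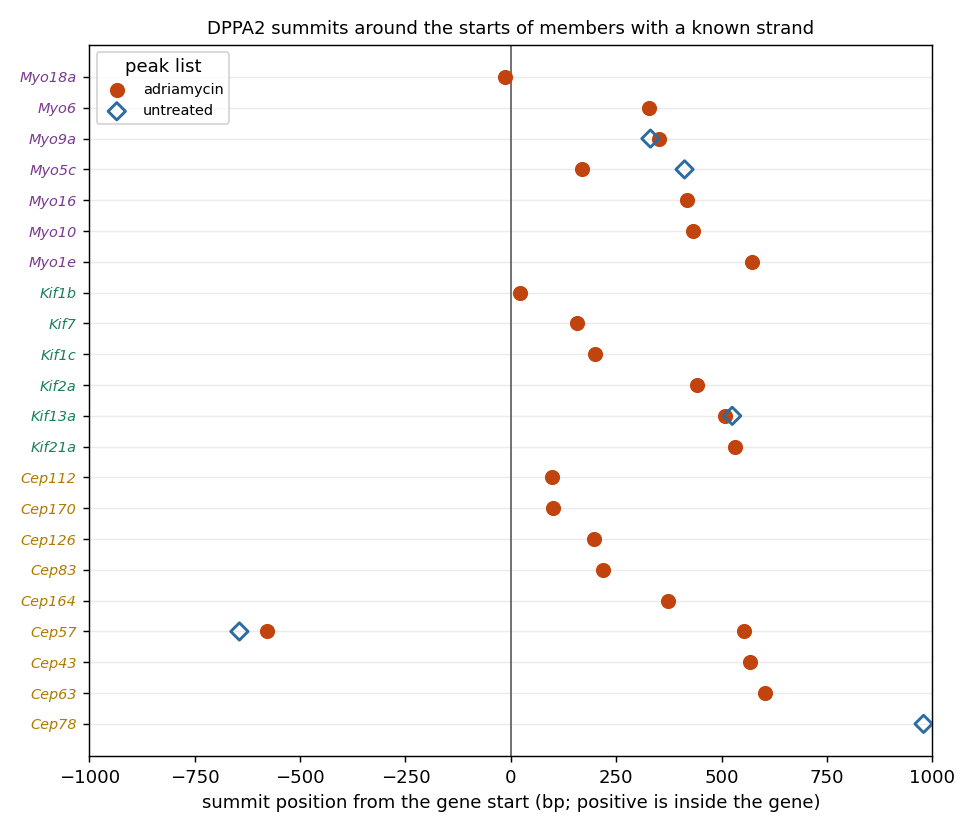
Position of each DPPA2 summit in bp from the outer end of its gene on the start side, for members with a known strand and a peak at the start. Filled circles are the adriamycin list and open diamonds the untreated list. Most circles lie between 0 and 603 bp inside the gene, and Cep57 has summits on both sides of its start.

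Some gene-end peaks also lay near an end of a neighbouring gene, most often among the Cep genes. Of the 27 members called at an end under adriamycin, 8 had one that also lay within 1 kb of an end of another coding gene (29.6%, against 17.9% of all genes with a gene-end peak). They were 5 of 11 Cep genes (Cep57 with Fam76b, Cep63 with Anapc13, Cep76 with Psmg2, Cep170 with Sdccag8 and Cep295 with Taf1d), Kif1c with Inca1, Kif21a with Gm52215, and Myo9a with Senp8. Sdccag8 is itself a centrosomal gene. A peak there cannot be given to a member rather than to its neighbour. By chromosome, 9 of 15 members on chromosome 9 were called at an end under adriamycin, against 17.2% of all genes there, and 18 of 86 members elsewhere were. This split was made after the positions were seen.

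Members had promoters rich in CpG, the more so where a peak was called. The median CpG number of the 300-base window was 24 over 83 members, against 13 over all 17492 promoters. It was 30 in the 23 members with a gene-end peak in either list and 21 in the 60 without. In the Kif family the median was 40.5 (range 30 to 62) in the 6 with a peak and 24 (1 to 38) in the 25 without. It was 22 in 7 Myo genes with a peak and 6 in 13 without, and 31.5 in 10 Cep genes with a peak and 23.5 in 22 without. All 6 Kif promoters with a peak held GGGCGG, as did 15 of the 25 without and 46.3% of all promoters. The Cep family went the other way, with 6 of 10 where a peak was called and 18 of 22 where none was. In Myo genes the counts were 5 of 7 and 8 of 13. Pooled over the families, the shares were 73.9% with a peak and 68.3% without. Over all genes, GGGCGG stood in 68.4% of promoters called at an end under adriamycin and in 42.2% of the rest. Of all genes with 30 or more CpG 37.6% were called at an end under adriamycin, and the share was 20.2% at 20 to 29 CpG, 15.1% at 10 to 19 and 6.11% under 10. The members' counts in these classes were 12 of 22, 6 of 28, 3 of 19 and 1 of 14. In the untreated list the shares of all genes were 13.7%, 7.26%, 5.46% and 2.45% over the same classes, and the members' counts 3 of 22, 1 of 28, 1 of 19 and 0 of 14. By family and in the same order of classes, the adriamycin counts were 1 of 4, 3 of 3, 2 of 4 and 1 of 9 for Myo, 6 of 9, 0 of 11, 0 of 7 and 0 of 4 for Kif, and 5 of 9, 3 of 14, 1 of 8 and 0 of 1 for Cep. The Kif and Cep calls were thus most frequent in the highest class and the Myo calls were not. The part of CpG number in the family shares was not tested. For Myo18a the RefSeq promoter lay 14008 bp from the summit, and its 3 CpG do not describe the called region. Nor do the 33 CpG of Cep295, counted in the highest class, whose promoter lay 41511 bp from its far-end summit.

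**Figure D3:**
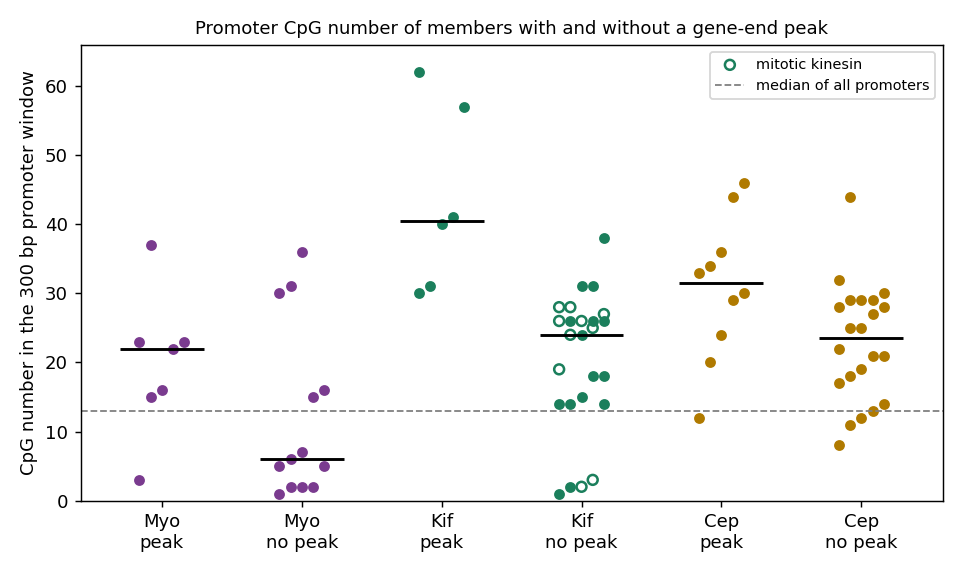
CpG number in the 300-base RefSeq promoter window of each member, split by family and by whether it had a gene-end peak in either list; bars are medians, open circles are mitotic kinesins, and the dashed line is the median of all promoters. Every Kif promoter with a peak has 30 or more CpG, and the mitotic kinesins have 2 to 28.

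Inside the genes, myosins held most of the summits. In the adriamycin list 17 of 25 Myo genes (68.0%) had a summit over 1 kb from both ends, against 5 of 38 Kif genes (13.2%) and 9 of 38 Cep genes (23.7%) and 17.9% of all genes. In the untreated list 8 Myo (32.0%), 1 Kif (2.63%) and 5 Cep genes (13.2%) did, against 8.16%. Myo genes are long, with a median of 102749 bp against 17169 bp for all genes. Per Mb of gene beyond 1 kb from the ends, the adriamycin list had 6.32 summits in Myo, 2.01 in Kif and 5.36 in Cep genes, against 5.91 in all genes. The untreated list had 2.90, 0.335 and 1.91, against 2.25. Per length the Myo genes were thus close to all genes, and the Kif genes held fewer summits. Among genes over 100 kb, 9 of 13 Myo, 1 of 9 Kif and 2 of 6 Cep genes had an inside summit in the adriamycin list, against 56.2% of all genes. Between 50 and 100 kb the counts were 6 of 7 Myo, 0 of 9 Kif and 2 of 12 Cep genes, against 30.6%. Between 20 and 50 kb they were 1 of 3, 4 of 14 and 5 of 14, against 1017 of 5094 genes, and under 20 kb 1 of 2, 0 of 6 and 0 of 6, against 6.47%. In the untreated list the counts over 100 kb were 3 Myo, 1 Kif and 2 Cep genes, against 30.8% of all genes, and at 50 to 100 kb 4, 0 and 1, against 14.6%. At 20 to 50 kb they were 1, 0 and 2, against 8.03%, and under 20 kb 0 in each family, against 2.21%. The Myo genes of 50 to 100 kb stood furthest above all genes in both lists, on 7 genes. Summits inside with no gene-end peak were found in 10 Myo, 4 Kif and 6 Cep genes in the adriamycin list and 7, 1 and 5 without treatment, against 14.2% and 7.46% of all genes.

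**Figure D4:**
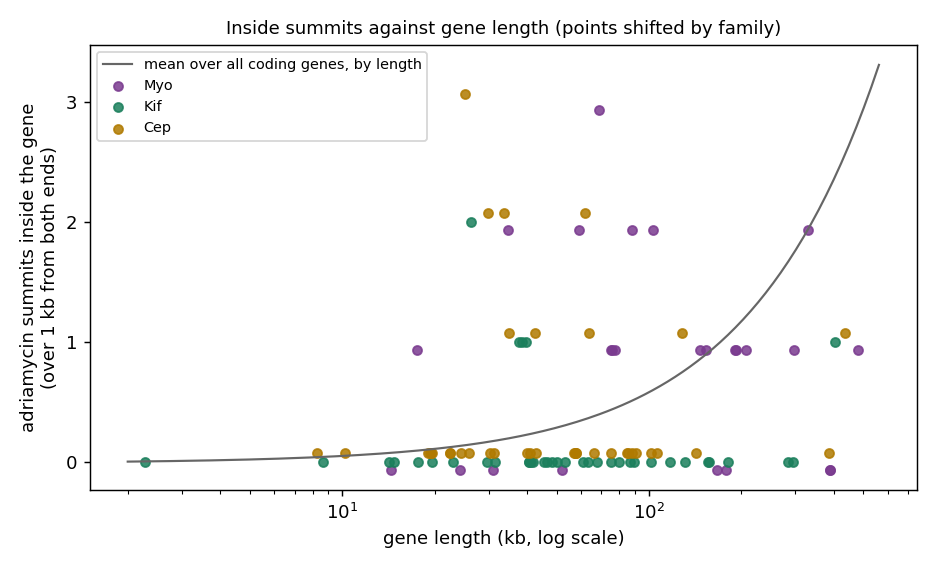
Number of adriamycin summits inside each member (over 1 kb from both ends) against gene length in kb on a log scale, coloured by family and shifted slightly so that points do not hide each other. The line is the mean of 5.91 summits per Mb over all protein-coding genes; 11 members have 2 or more, and Myo7a and Cep170b have 3.

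The highest folds of the Myo and Cep families lay inside genes, and that of the Kif family at an end (Kif21a). In Cep112 (chromosome 11, 108425215 to 108860615) a peak at 108656118 to 108656469 had fold 8.33 and 16 fragments (9.15 to 26.0) in the adriamycin list. Its untreated counterpart at 108656176 to 108656501 had fold 7.73 and also 16 fragments (9.15 to 26.0). Its summits lay 204293 bp (adriamycin) and 204258 bp (untreated) from the nearer end, on a local background 1.01 times the genome-wide value in both lists. Myo5c had a second peak at 75274884 to 75275642, with fold 7.35 and 29 fragments (19.4 to 41.6) in the adriamycin list. The untreated peak there, 75275027 to 75275712, had fold 4.36 and 14 fragments (7.65 to 23.5), with its summit 570 bp away. Myo18a held 2 inside peaks in both lists: 77818518 to 77818920 had fold 7.18 and 28 fragments (18.6 to 40.5) in the adriamycin list, and its untreated counterpart fold 5.18 and 22 fragments (13.8 to 33.3). In each of these pairs the pileup intervals overlapped, and at Cep112 the pileups were equal.

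At 5 overlapping inside pairs the untreated list had the higher fold, which is not scaled between the libraries. At Cep164 (chromosome 9, 45766946 to 45828686) the adriamycin peak at 45807070 to 45807282 had fold 3.54 and 14 fragments (7.65 to 23.5). The untreated peak at 45806880 to 45807172 had fold 6.63 and 25 fragments (16.2 to 36.9). At Myo6 the inside peak had fold 5.43 in the adriamycin list and 6.10 without treatment, with 14 fragments (7.65 to 23.5) in each. Myo15 and Myo7a, both needed in the hair cells of the ear, had folds of 4.17 and 3.85 under adriamycin, against 5.45 and 4.11 without treatment, and Myo15b 4.87 and 5.22. All intervals overlapped between the lists. Among kinesins, the atypical Kif26b (chromosome 1, 178529125 to 178932857) had an inside peak of fold 5.78 and 28 fragments (18.6 to 40.5) in the adriamycin list, with a counterpart of fold 4.02 and 17 fragments (9.90 to 27.2) in the untreated list. Kif26a had a peak at 112161646 to 112161873 with fold 4.86 and 17 fragments (9.90 to 27.2), in the adriamycin list alone. The stronger inside peak of Kif19a, at 114784753 to 114785021, had fold 4.66 and 24 fragments (15.4 to 35.7), and was likewise absent from the untreated list.

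For 4 members an inside summit lay within 1 kb of an internal annotated start. The share over all genes was not counted, so this describes these members alone. At Kif3a, a motor subunit that builds cilia, the adriamycin summit was 75 bp from one. At Myo5a, the melanosome motor, the distances were 329 bp with adriamycin and 364 bp without. They were 436 bp with and 533 bp without adriamycin at Cep170b, and 434 bp at Cep78 in the adriamycin list. The inside peaks of Cep170b at 112737838 to 112738054 and 112738784 to 112739375 on chromosome 12 stood on local backgrounds of 6.15 and 6.29 times the genome-wide value. They were the only peaks of the families above the limit of 5 times used for high background, whose part in these calls was not tested.

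Across the families, 19 of 22 untreated peaks overlapped an adriamycin peak. Over all genes, 75.8% of untreated gene-end peaks and 76.5% of untreated inside peaks did. In the adriamycin list, 19 of 72 peaks of the families overlapped an untreated one. At gene ends the adriamycin share was 4 of 28 (14.3%), against 27.2% of gene-end peaks of all genes, and inside it was 15 of 44 (34.1%), against 29.5%. In the 19 overlapping pairs the summits lay a median of 89 bp apart. In 14 of them the pileup over the library's genome-wide background was higher in the adriamycin library, as it was in 81.3% of all 5629 overlapping pairs. The pileup intervals overlapped in all 19.

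Pooled over the families, median folds at members were not above those at all genes. Gene-end peaks of members had a median fold of 4.77 (range 3.69 to 6.34) under adriamycin and 4.41 (4.14 to 5.66) without it. Gene-end peaks of all genes had medians of 4.79 and 4.69. Inside peaks of members had medians of 4.80 and 4.88, against 4.90 and 4.96 for inside peaks of all genes. The families differed: gene-end medians with adriamycin were 4.71 for 9 Myo, 5.30 for 7 Kif and 4.73 for 12 Cep peaks, so that of Kif lay above all gene-end peaks. Inside medians with adriamycin were 4.89, 4.66 and 4.63. Without treatment the 5 inside Cep peaks had a median of 5.56 and the 11 inside Myo peaks one of 4.63.

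**Figure D5:**
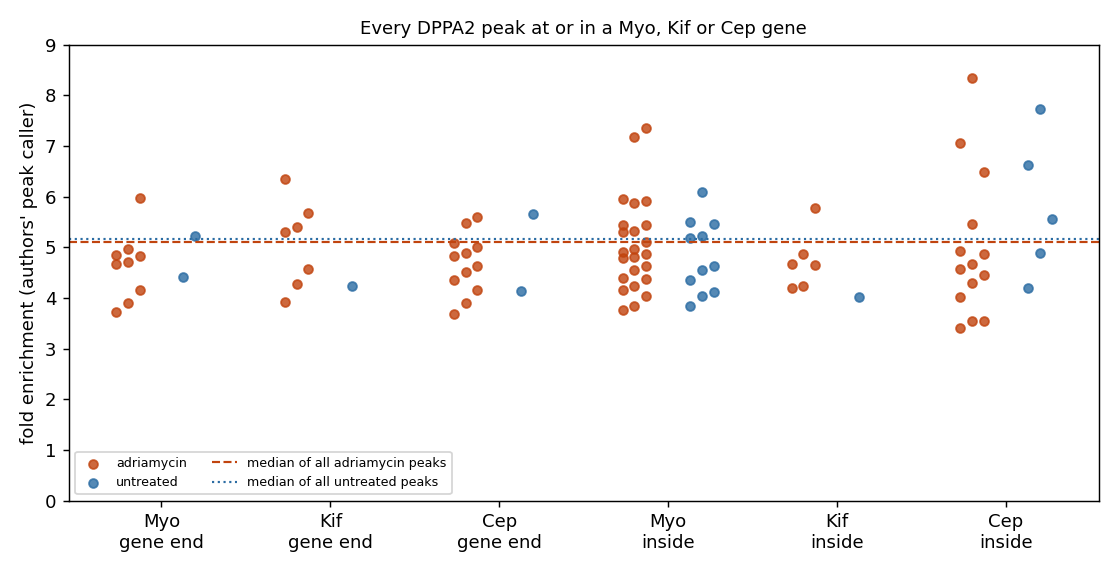
Fold enrichment given by the authors' peak caller for every peak at an end of, or inside, a member, by family, with adriamycin peaks left of untreated peaks; lines are the medians of all peaks of each list (5.10 adriamycin, 5.16 untreated). Most gene-end peaks lie below the lines, and the folds above 6.5 are all inside genes.

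Related genes outside the 3 symbol families are read against the shares of all genes with a gene-end peak, 16.0% with adriamycin and 5.78% without. The dynein and centrosome lists lay near these shares, and the myosin-2 heavy chain and other kinesin lists held no gene-end peak. With 14 and 11 genes in those lists, counts of 0 cannot be told from these shares. Of 14 heavy chains of myosin-2, the filament-forming myosin, 0 had one in either list. Of 16 myosin light chain and light chain kinase genes 1 was called under adriamycin (Myl12a, fold 5.15) and 0 without treatment. Of 11 other kinesin genes, among them Kifc1, Cenpe and the kinesin light chains, 0 had one in either list. Of 30 dynein and dynactin genes 5 (16.7%) had one in the adriamycin list and 2 (6.67%) without treatment. Dynlt1b, called in both lists, stood on a high local background. It had 56 and 78 fragments at folds of 4.77 and 6.53 with adriamycin, and 48 and 87 at 3.77 and 6.75 without. The limit for high background was not applied to these related lists. Of 56 other centriole and centrosome genes 8 (14.3%) had one in the adriamycin list and 4 (7.14%) without treatment. Among them were the kinase gene Plk1, with folds of 4.36 and 3.97, and Plk4, the trigger of centriole duplication, with fold 4.66 in the adriamycin list alone.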

How the data were processed

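DPPA2 ChIP-seq peak lists of 1 adriamycin and 1 untreated library were used as deposited, with groups taken from the labels. Per the submitters' processing notes, the tools included MACS3 3.0.0b1, Bowtie2 2.5.1, deepTools 3.5.1, FastQC 0.12.1 and SAMtools, and the build was mm10. The calling command, filters and input, if any, are not given in the sources used, so folds carry no known input correction. Peaks were called per library. The deposited fold is the authors' ratio of summit to local background, not scaled between libraries. Significance was deposited as −log10 of the p-value and q-value, with a minimum −log10 q of 1.30 (adriamycin) and 1.33 (untreated). The authors' score equals 10 times −log10 q without its decimals (100% of adriamycin and 99.97% of untreated entries). A further deposited column of another kind gives the distance from peak start to summit.

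Peaks on unplaced contigs and the mitochondrial genome (142 adriamycin, 126 untreated) were left out. Pileups were found as the whole number that gives both the fold and the Poisson −log10 p within 0.001, with a pseudocount of 1; this succeeded for 99.98% of adriamycin and 99.94% of untreated peaks, and was tested on simulated data. Intervals are exact 95% Poisson intervals and cover counting error only. Gene ends came from a RefSeq table (GRCm38.p6, the build of mm10) without exons or strand. Strand and promoter sequences came from RefSeq promoter entries, which matched 83 of 101 members. Overlap meant at least 1 bp. Python 3.11.15, numpy 2.4.6, pandas 2.3.3, scipy 1.17.1 and matplotlib 3.10.9 were used.

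Members and lists were chosen with earlier results of these data known. Every member with a gene-end peak is named, except that a few items are not reported here. Given in full are members called in both lists, the 4 highest folds at ends in the adriamycin list per family, members called in the untreated list alone, and the 3 highest folds inside. The mitotic, kinesin family and centrosomal role groups were drawn up after the peaks were seen. Alternatives varied the peak threshold, list length, window, overlap and background limit.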

Additional observations from a re-analysis of the deposited data

How the results depend on the processing

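Counts of members with a gene-end peak depended most on peak strength. At −log10 q of at least 5 the adriamycin and untreated counts were 3 and 1 for Myo, 4 and 0 for Kif and 2 and 1 for Cep. At a fold of at least 5 they were 1 and 1 for Myo, 4 and 0 for Kif and 3 and 1 for Cep. With lists of equal length the adriamycin counts were 1 Myo, 4 Kif and 2 Cep, and the Myo count was then below the untreated 2. Over all genes the shares were 7.12% and 2.10% at that q, and 6.94% and 2.14% at that fold. Within 500 bp the counts were 7 Cep in the adriamycin list, and 0 Kif and 0 Cep in the untreated list. Members with a summit inside and no gene-end peak moved to 0 Kif and 2 Cep in the untreated list at that q. At that fold they moved to 1 Kif in the adriamycin list, and to 0 Kif and 3 Cep in the untreated list. Shares of all genes were not counted within 500 bp, or for inside summits at that q or fold. These moves therefore describe the members alone. Asking the peaks to overlap by 50% left 0 Kif genes called in both lists. Asking, as added after the data were seen, that the untreated gene-end peak overlap any adriamycin peak gave 2 Cep genes. The cause was not tested. The other values stayed within 1.5 times of those reported, among them all 6 gene-end counts with a 2500 bp window, with any base of the peak, without high background and at gene starts alone. Few fragments per summit limit each call. No paired analysis was possible because each group has 1 library and the labels carry no replicate numbers.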
